A study of Rattus norvegicus with 34 samples.

Results

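The windows described here are 506 stretches of 1000 bases of the rat genome (build Rnor_6.0) whose methylated-DNA signal differed widely among 6 pools of control sperm. They were chosen by 2 values from the F1 control pools on chromosomes 1 to 20. The mean over the 6 pools had to lie from 1 to below 10 RPKM, and the highest pool had to reach at least 4 times the lowest. RPKM, as the authors deposited it, is the read number of a window scaled to its length and to the reads of the library. Of 2782040 windows in all, 2618741 lie on those chromosomes, 252773 have a mean in that range, and 506 of these (0.2%) also meet the ratio. The other 252267 windows of the range are the background for what follows.

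Sperm came from outbred Hsd Sprague Dawley rats. F2 ifosfamide and F1 ifosfamide males descend from F0 males injected intraperitoneally with 8.5 mg/kg ifosfamide, an alkylating chemotherapy drug, on days 26, 29 and 32 of age. F1 control males descend from F0 males given 1.1 mL/kg phosphate-buffered saline on the same days of age. F1 and F2 males received no injection themselves. Sperm of the cauda epididymis was freed of somatic cells by sonication and washing. Males were combined into pools at the DNA stage, ahead of the pull-down. Each of the 6 F2 ifosfamide pools held 8 to 9 males, and each of the 6 F1 ifosfamide and 6 F1 control pools held 3 to 4 males. F0 libraries and F2 control libraries were not analysed here. The age at sperm collection is not given in the sources used here, and no source says which males share a litter or a pool. P-values therefore measure the spread between these pools.

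Methylated DNA immunoprecipitation sequencing (MeDIP-seq) reads the DNA fragments that an antibody to methylated cytosine captures. The read density of a window follows its methylation, its number of CpG sites and its copy number, and it does not separate them. Most CpG sites outside CpG islands are methylated in mammalian sperm. In outbred animals, sperm methylation can differ between individuals at sites where the underlying DNA also differs, and at some retrotransposons.

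Libraries held 27424144 to 36309987 window counts in F2 ifosfamide pools, 25531658 to 39440265 in F1 ifosfamide pools and 23336048 to 34051679 in F1 control pools. Window counts exceeded reads by a factor of 1.16 to 1.25, and directly adjacent windows therefore share reads. In the variable windows the lowest control pool had a median of 9 counts and the highest a median of 45. Where pools differ by counting alone, chi-square per degree of freedom over the 6 pools of a group has a mean near 1. Its median over windows then lies below 1. For the variable windows the median was 1.61 in F2 ifosfamide, 2.89 in F1 ifosfamide and 5.46 in F1 control. For the other windows of the range the median was 1.07 in F2 ifosfamide, 1.39 in F1 ifosfamide and 1.17 in F1 control. The F1 control value of the variable windows follows from how they were chosen.

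The values that chose the windows are given as a description. Control means ran from 1.00 to 9.86 RPKM with a median of 1.23, and 436 windows (86.2%) had a mean below 2 RPKM. Another 58 windows had a mean from 2 to below 5 RPKM and 12 had a mean of 5 RPKM or more. The ratio of highest to lowest control pool had a median of 4.43 and stayed below 5 in 365 windows, while 51 windows reached 6. In 1 window (chr14:16610001-16611000) control pool 6 was listed at 0 RPKM and the other 5 control pools at 1.19 to 1.62 RPKM. Just inside the threshold were 5 windows with a ratio of exactly 4, among them chr1:166065001-166066000. Just outside it, the 5 nearest windows had ratios of 3.98 to 3.99. At least 3-fold differences were found in 3255 windows of the range, so the 506 are the upper end of a continuous distribution.

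In most of the windows 1 control pool was low, and a single high pool was rare. In 354 windows (70.0%) the lowest control pool stood at least 2-fold below the next lowest, whereas in 7 windows (1.38%) the highest stood at least 2-fold above the next highest. The low pool was control pool 1 in 327 windows (64.6%), control pool 4 in 76 (15.0%), pool 3 in 37, pool 6 in 34, pool 2 in 17 and pool 5 in 15. Among the other windows of the range, control pool 1 was lowest in 19.8%. The highest pool was control pool 6 in 232 windows (45.8%), against 22.6% of the other windows of the range. The commonest combination, pool 1 lowest with pool 6 highest, accounted for 189 windows.

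In the 327 windows where it was lowest, control pool 1 had a median of 0.344 of the mean of the control pools, while pools 2 to 6 had 0.979, 1.07, 1.27, 0.872 and 1.45. In the 76 windows with control pool 4 lowest, that pool had 0.336 of the mean and the other 5 pools 1.01 to 1.21. The library figures of control pool 1 lay within those of the other control pools. By the scaling of its RPKM values, 1 RPKM stood for 21.5 counts, against 20.2 to 28.4 counts in the other control pools, a read covered 1.19 windows against 1.16 to 1.22, and the most covered 10% of windows took 40.6% of its counts against 40.5% to 41.5%. In the counts over all windows of the range it did stand apart from some pools. Chi-square per degree of freedom between 2 control pools was highest for pool 1 with pool 6 (1.805) and pool 1 with pool 4 (1.756), and the other control pairs had 1.168 to 1.521. Chosen without control pool 1, by the same rule on the other 5 control pools, 141 windows met it in place of 506, and 131 of them were among the 506. Without control pool 6 there were 284. Without any 1 of the other pools the number was 362 to 487.

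**Figure D1:**
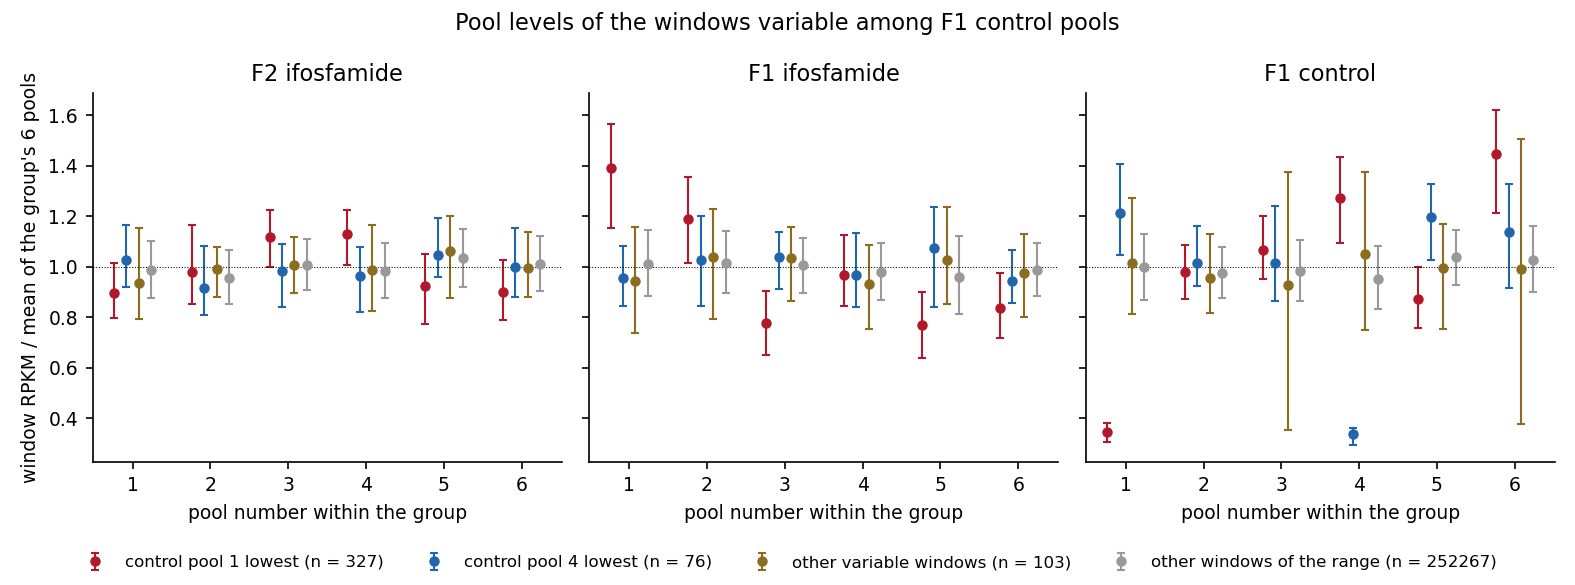
Level of each pool divided by the mean of the 6 pools of its group, for variable windows with control pool 1 lowest, control pool 4 lowest or another pool lowest, and for the other windows of the range. Points are medians over windows and bars run from the lower to the upper quartile. The single low points at control pools 1 and 4 follow from how the windows were chosen, whereas the high F1 ifosfamide pools 1 and 2 in red (medians 1.39 and 1.19) did not enter the choice.

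F1 ifosfamide pools, which had no part in the choice, also differed in their median level in these windows. Over the 327 windows with control pool 1 lowest, F1 ifosfamide pools 1 and 2 had medians of 1.39 and 1.19 of their group's mean, pool 4 had 0.969, pool 6 had 0.835, pool 3 had 0.777 and pool 5 had 0.769. Pool 1 was the highest F1 ifosfamide pool in 187 of these 327 windows, and in 20.4% of the other windows of the range. Pool 2 was highest in 61 of the 327 and pool 4 in 51, so single windows departed from the order of the medians. At chr3:118675001-118676000, for example, F1 ifosfamide pools 1 to 6 had 0.42, 0.09, 0.19, 1.33, 0.97 and 0.55 RPKM. F2 ifosfamide pools lay closer together, with medians between 0.895 (pool 1) and 1.13 (pool 4). In the 76 windows with control pool 4 lowest, medians were 0.915 to 1.05 over the F2 ifosfamide pools and 0.944 to 1.07 over the F1 ifosfamide pools. F1 ifosfamide pools 1 and 2 also stood apart from pools 3 to 6 in the counts over all windows of the range. Chi-square per degree of freedom was 1.132 between pools 1 and 2, and 1.707 to 2.648 between either of them and pools 3 to 6. Among pools 3 to 6 it was 1.161 to 1.644.

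Variable windows were spread over all 20 chromosomes. Their share of the windows of the range was lowest on chromosome 10 (0.123%) and highest on chromosome 12 (0.291%) and chromosome 14 (0.287%). Chromosome 2 held 58 and chromosome 1 held 48. At a scale of 1 Mb they fell into 432 bins, of which 11 held 3 windows or more. The fullest bins were 160 to 161 Mb of chromosome 2 with 6 windows, 16 to 17 Mb of chromosome 14 with 5, and 46 to 47 Mb of chromosome 14 with 4.

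The windows were mostly solitary. No other variable window lay within 10 kb of 476 of them (94.1%). The remaining 30 (5.93%) had one within 10 kb, against 0.517% of the other windows of the range. In the directly adjacent window, which shares reads, the figures were 24 windows (4.74%) against 0.0928%. Leaving the adjacent window out, 14 windows (2.77%) had another at 2 to 10 kb, against 0.428% of the other windows. At a distance of up to 50 kb the shares were 9.29% and 2.23%, and up to 100 kb they were 11.7% and 4.18%. Grouped at 10 kb, the 30 windows formed 13 runs, namely 10 of 2 windows, 2 of 3 windows and 1 of 4 windows. No run held 5 or more. For windows chosen without control pool 1, the share with another within 10 kb was 12.1% of 141.

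**Figure D2:**
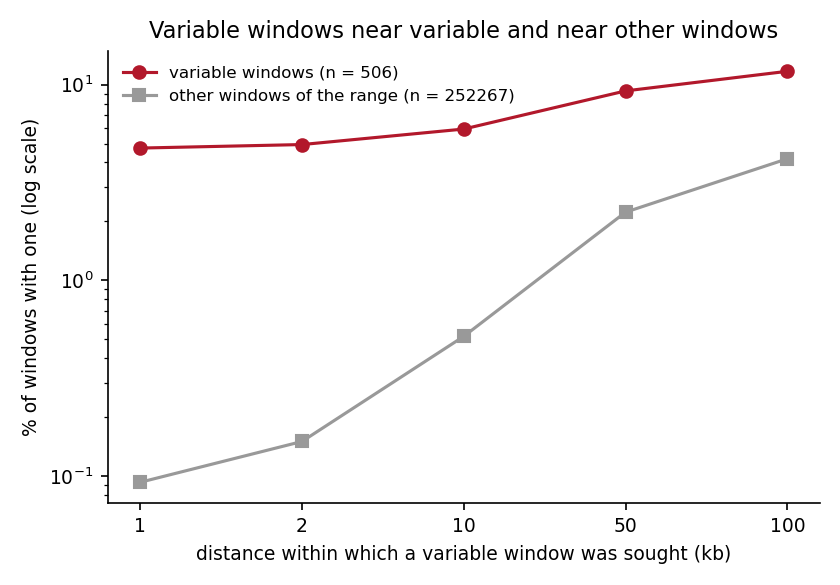
Share of windows that had a variable window within 1, 2, 10, 50 or 100 kb, for the variable windows themselves and for the other windows of the range (log scale). The lines approach each other with distance, with 4.74% and 0.0928% at 1 kb and 11.7% and 4.18% at 100 kb.

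The surroundings of the variable windows carried less signal than those of other windows of the range. The directly adjacent windows had a median control mean of 0.498 RPKM, against 0.755 RPKM beside the other windows of the range. The variable windows themselves had a median of 1.23 RPKM and the others 1.38 RPKM. As the mean of both neighbours, the median was 0.516 RPKM for the 327 windows with control pool 1 lowest. It was 0.775 RPKM for the other 179 and 3.03 RPKM for the 17 with control pool 3 highest and pool 6 lowest. That mean was not computed for the other windows of the range. Of the adjacent windows, 25.5% beside variable windows and 36.9% beside the others were themselves in the range. In those adjacent windows of the range the control ratio had a median of 2.18 beside variable windows and 1.61 beside the others. At a distance of 2 kb it was 1.71 and 1.61. Isolated windows, whose counts stood at least 10 times above both neighbours, made up 16 of the 506 (3.16%) and 0.511% of the others. Control pool 1 was lowest in 15 of these 16.

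The longest run lay at chr2:160886001-160892000, where 4 of 6 successive windows were variable. Its mean over the 4 windows was 2.47 to 4.36 RPKM in F2 ifosfamide pools (median 3.24), 1.37 to 5.12 RPKM in F1 ifosfamide pools (median 3.27) and 0.82 to 5.56 RPKM in F1 control pools (median 4.09). Control pools 3 and 4 were low together, at 0.82 and 0.955 RPKM, and the other 4 control pools had 3.75 to 5.56 RPKM. In each of the 4 windows F1 ifosfamide pool 4 was the lowest of its group, with 3.04 RPKM in the first window where the other 5 pools had 6.33 to 10.2 RPKM. The same control pools were low in a run of 2 windows at chr12:49175001-49182000, where pools 3 and 4 had means of 0.605 and 0.745 RPKM and the others 1.51 to 2.51 RPKM. F1 ifosfamide pool 4 was lowest there too, at 0.715 RPKM against 1.25 to 2.46 RPKM in the other pools of its group.

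Another profile recurred on several chromosomes. At chr6:30634001-30640000, a run of 3 variable windows, the mean was 4.39 to 5.68 RPKM in F2 ifosfamide pools, 4.18 to 8.93 RPKM in F1 ifosfamide pools and 1.64 to 7.17 RPKM in F1 control pools. Control pool 3 was high and control pool 6 low, and F1 ifosfamide pool 5 was high and pool 1 low. Control pool 3 was also highest and pool 6 lowest at chr1:11910001-11912000, at chr5:91134001-91142000, and in windows of chromosome 14 between 46 and 47 Mb. In all, 17 variable windows on 9 chromosomes had this order of control pools. Other orders were about as common, such as pool 3 lowest with pool 6 highest (19) and pool 4 lowest with pool 5 highest (16). Several of the 17 lie close together, as in the runs above, so they stand for fewer loci than windows. The share of other windows of the range with this order is not given here. F1 ifosfamide pool 5 was the highest of its group in 9 of the 17 and pool 1 the lowest in 10. Among the other windows of the range, these pools held those places in 19.3% and 16.7%. Of the 5 windows with the highest control mean, 3 were among the 17. At chr1:11973001-11974000 the level was 8.96 to 13.6 RPKM in F2 ifosfamide pools (median 10.7), 8.20 to 20.5 RPKM in F1 ifosfamide pools (median 15.7) and 3.47 to 18.7 RPKM in F1 control pools (median 8.79). At chr14:46687001-46688000 it was 8.67 to 14.4 RPKM in F2 ifosfamide pools, 7.51 to 14.0 RPKM in F1 ifosfamide pools and 3.94 to 15.9 RPKM in F1 control pools. The 3 groups overlapped at both windows. Outside this set, chr2:230267001-230268000 had 7.10 to 12.2 RPKM in F2 ifosfamide pools, 3.49 to 11.6 RPKM in F1 ifosfamide pools and 3.31 to 14.5 RPKM in F1 control pools, with F1 ifosfamide pool 6 and control pool 1 the low ones.

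Other runs had profiles of their own. At chr18:30727001-30731000, with 3 variable windows, control pool 2 was low with a mean of 0.483 RPKM where the other control pools had 1.13 to 2.00 RPKM. F2 ifosfamide pools had 1.16 to 1.79 RPKM and F1 ifosfamide pools 1.27 to 1.82 RPKM there, so neither ifosfamide group held a pool as low. At chr11:54521001-54523000 F2 ifosfamide pool 1 had a mean of 0.86 RPKM where the other 5 pools of its group had 1.81 to 2.76 RPKM. In F1 ifosfamide, pools 5 and 6 had 0.965 and 0.78 RPKM and the others 1.66 to 3.77 RPKM, and in F1 control, pool 5 had 0.655 RPKM and the others 1.42 to 4.51 RPKM. Each of the 3 groups thus held at least 1 low pool in that run. At chr5:6373001-6375000 F1 ifosfamide pools 4 and 6 had 0.19 and 0.255 RPKM against 1.08 to 2.44 RPKM in the other pools of the group. F2 ifosfamide pools had 1.44 to 3.09 RPKM and F1 control pools 0.6 to 2.88 RPKM in the same run.

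Control pool 1 was the low pool in runs on chromosomes 2, 10 and 17. At chr2:39669001-39671000 it had 0.305 RPKM and the other control pools 1.51 to 1.74 RPKM. The F2 ifosfamide pools had 1.05 to 1.93 RPKM there and the F1 ifosfamide pools 0.42 to 1.14 RPKM, so that only F1 ifosfamide pool 4 reached the F2 ifosfamide range. At chr17:26697001-26699000 control pool 1 had 1.19 RPKM against 2.63 to 5.07 RPKM in the other control pools, and F1 ifosfamide pool 4 had 3.94 RPKM against 1.42 to 2.17 RPKM in the other pools of its group.

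**Figure D3:**
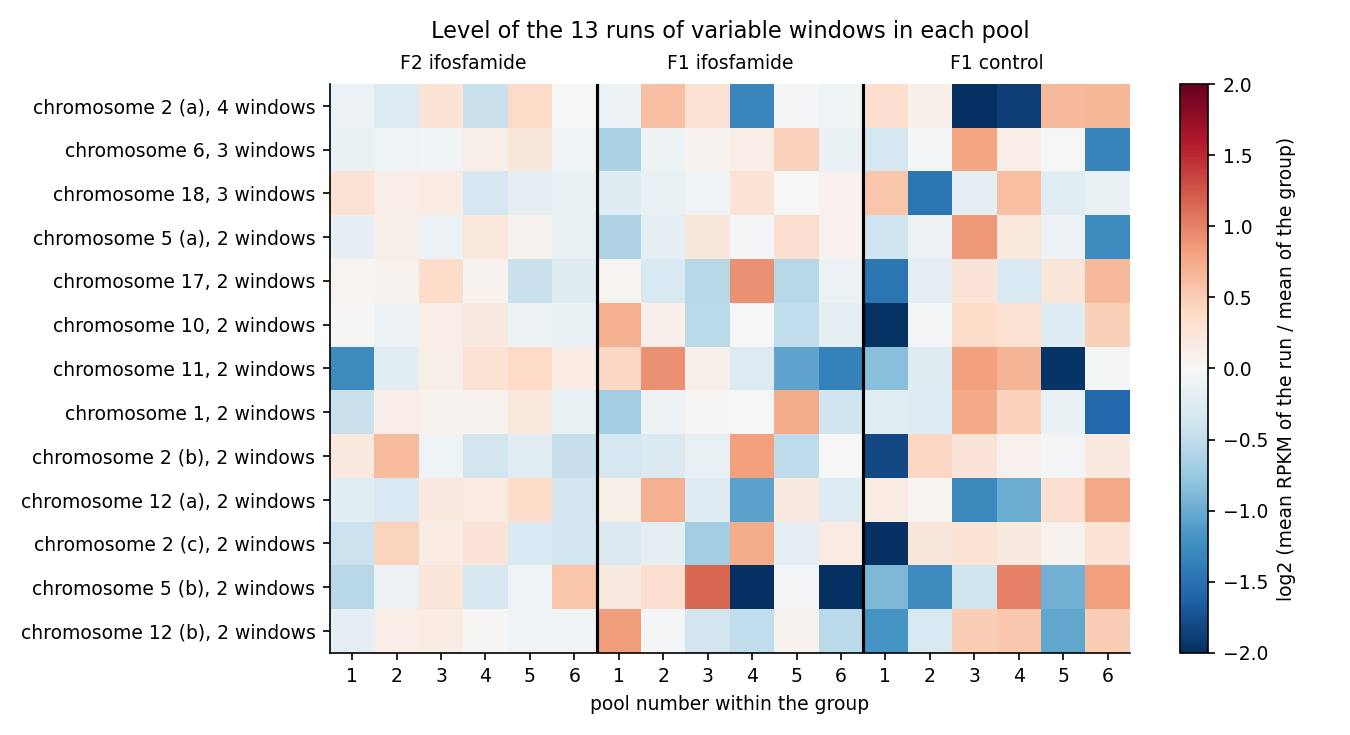
Mean level of each of the 13 runs in the 18 pools, as log2 of the run's mean RPKM over the mean of the 6 pools of the group, with runs in rows and pools in columns. Blue cells are pools below their group's mean, and the colours end at -2 and 2. The lowest control pool differs between runs, for example pool 1 at chromosome 17, pool 2 at chromosome 18, pool 3 in the run of 4 windows on chromosome 2, pool 5 at chromosome 11 and pool 6 at chromosome 6.

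In the control pools, whose values chose the windows, all windows of a run had the same lowest pool in 12 of the 13 runs, and the same highest pool in 8. In F1 ifosfamide pools, which played no part in the choice, the highest pool was shared in 10 of 13 runs and the lowest in 5. In F2 ifosfamide the highest pool was shared in 5 runs, the lowest in 5 and both in 4. Among directly adjacent pairs of other windows of the range, the lowest pool was shared by 28.2% of pairs in F2 ifosfamide, 34.9% in F1 ifosfamide and 29.8% in F1 control, and the highest pool by 28.9% in F2 ifosfamide, 31.8% in F1 ifosfamide and 30.3% in F1 control. The share of runs with the same lowest pool in F1 ifosfamide was thus near that of other adjacent pairs, but the 2 measures are unlike. A run was counted only if all its 2 to 4 windows shared the pool, and runs spanned 2 to 8 kb.

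Neighbouring windows were also compared by the correlation of log2(RPKM + 0.1) over the 6 pools of a group. Pairs of 2 variable windows 2 to 10 kb apart had a median Pearson r of 0.432 in F2 ifosfamide, 0.909 in F1 ifosfamide and 0.982 in F1 control (10 pairs). Single pairs ran from 0.245 to 0.779 in F2 ifosfamide, from -0.759 to 0.961 in F1 ifosfamide and from 0.686 to 0.992 in F1 control. Pairs of other windows at that distance had medians of 0.0599, 0.0992 and 0.0811 in F2 ifosfamide, F1 ifosfamide and F1 control. Directly adjacent variable windows had medians of 0.846 in F2 ifosfamide, 0.878 in F1 ifosfamide and 0.976 in F1 control (12 pairs). At 11 to 50 kb the medians were 0.602 in F2 ifosfamide, 0.80 in F1 ifosfamide and 0.890 in F1 control (12 pairs), and at 51 to 1000 kb they were 0.0522 in F2 ifosfamide, 0.326 in F1 ifosfamide and 0.503 in F1 control (130 pairs). Each r rests on 6 pools, pairs within a run share windows, and the control values also chose the windows. The 10 pairs at 2 to 10 kb lie in few runs, and the run of 4 windows on chromosome 2 holds several of them. In F2 ifosfamide the median at 2 to 10 kb was 0.789 without pool 2.

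Pairs on different chromosomes were compared in the same way, and here the F1 control values are set by the choice of windows with a wide control range and, in the classes below, with the same extreme pools. On different chromosomes, 2 variable windows had a median r of 0.0848 in F2 ifosfamide, 0.185 in F1 ifosfamide and 0.367 in F1 control, whereas 2 other windows of the range, taken at every 500th, had 0.0108 in F2 ifosfamide, 0.00817 in F1 ifosfamide and 0.0370 in F1 control. Where control pool 1 was lowest in both windows, medians were 0.234 in F2 ifosfamide, 0.526 in F1 ifosfamide and 0.876 in F1 control. Where it was lowest in neither, they were 0.00806 in F2 ifosfamide, 0.0151 in F1 ifosfamide and 0.0834 in F1 control. The 17 windows with control pool 3 highest and pool 6 lowest had medians of 0.264 in F2 ifosfamide, 0.418 in F1 ifosfamide and 0.908 in F1 control between chromosomes. All windows of a pool share that pool's males, library and depth.

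**Figure D4:**
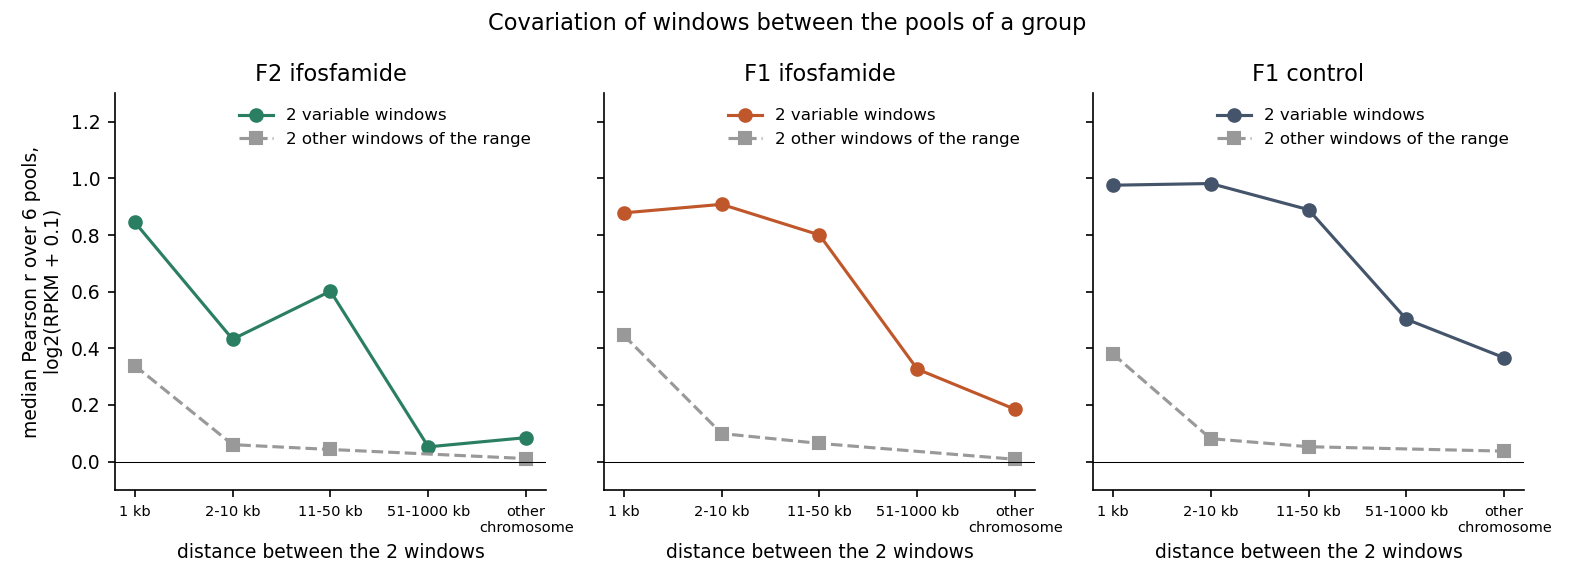
Median Pearson r between 2 windows over the 6 pools of a group, by the distance between them, for pairs of variable windows (coloured) and pairs of other windows of the range (grey; not computed at 51 to 1000 kb). At 11 to 50 kb the medians of variable pairs are 0.602 in F2 ifosfamide, 0.80 in F1 ifosfamide and 0.890 in F1 control.

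Spread among the ifosfamide pools was larger in the variable windows than in the rest of the range, and larger in F1 than in F2. The highest pool reached 4 times the lowest in 12 of 506 variable windows (2.37%) over the F2 ifosfamide pools and in 48 (9.49%) over the F1 ifosfamide pools. Of the other windows of the range, 0.0432% did so in F2 ifosfamide and 0.151% in F1 ifosfamide. A ratio of at least 2 was reached by 29.1% of variable windows in F2 ifosfamide and 66.8% in F1 ifosfamide, against 11.5% and 19.1% of the other windows. The coefficient of variation over pools had a median of 0.211 in F2 ifosfamide, 0.307 in F1 ifosfamide and 0.432 in F1 control for the variable windows, and of 0.168 in F2 ifosfamide, 0.185 in F1 ifosfamide and 0.184 in F1 control for the others. F2 ifosfamide pools held 8 to 9 males and F1 pools 3 to 4, so generation and pool size cannot be told apart in this difference.

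The spread in ifosfamide pools followed the control ratio over the whole range. Among windows with a control ratio below 1.5, 0.0142% reached 4 times in F2 ifosfamide and 0.0452% in F1 ifosfamide. Among windows with a control ratio of 3 to below 4, which just missed the choice, it was 0.327% and 1.93%. Among the 455 variable windows with a ratio of 4 to below 6 it was 1.54% in F2 ifosfamide and 7.03% in F1 ifosfamide, and among the 51 with a ratio of 6 or more it was 9.80% and 31.4%. At a control mean of 2 to below 5 RPKM, where counts are higher, 1 of 58 variable windows (1.72%) reached 4 times in F2 ifosfamide and 11 (19%) in F1 ifosfamide, against 0.00414% and 0.0683% of the other windows at that level. Windows with control pool 1 lowest and the other 179 variable windows reached 4 times or more at shares of 2.75% and 1.68% in F2 ifosfamide and 9.79% and 8.94% in F1 ifosfamide. By lowest control pool, the F1 ifosfamide counts were 4 of 17 for pool 2, 7 of 37 for pool 3, 0 of 76 for pool 4, 2 of 15 for pool 5 and 3 of 34 for pool 6. The differences between these classes were not tested. The F1 ifosfamide share of 9.49% was 6.13% without F1 ifosfamide pool 4 and 5.34% with 0.1 RPKM added to every value. For the windows that met the rule without control pool 6 the shares were 4.23% in F2 ifosfamide and 13.4% in F1 ifosfamide, and without control pool 1 they were 1.42% and 11.3%.

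**Figure D5:**
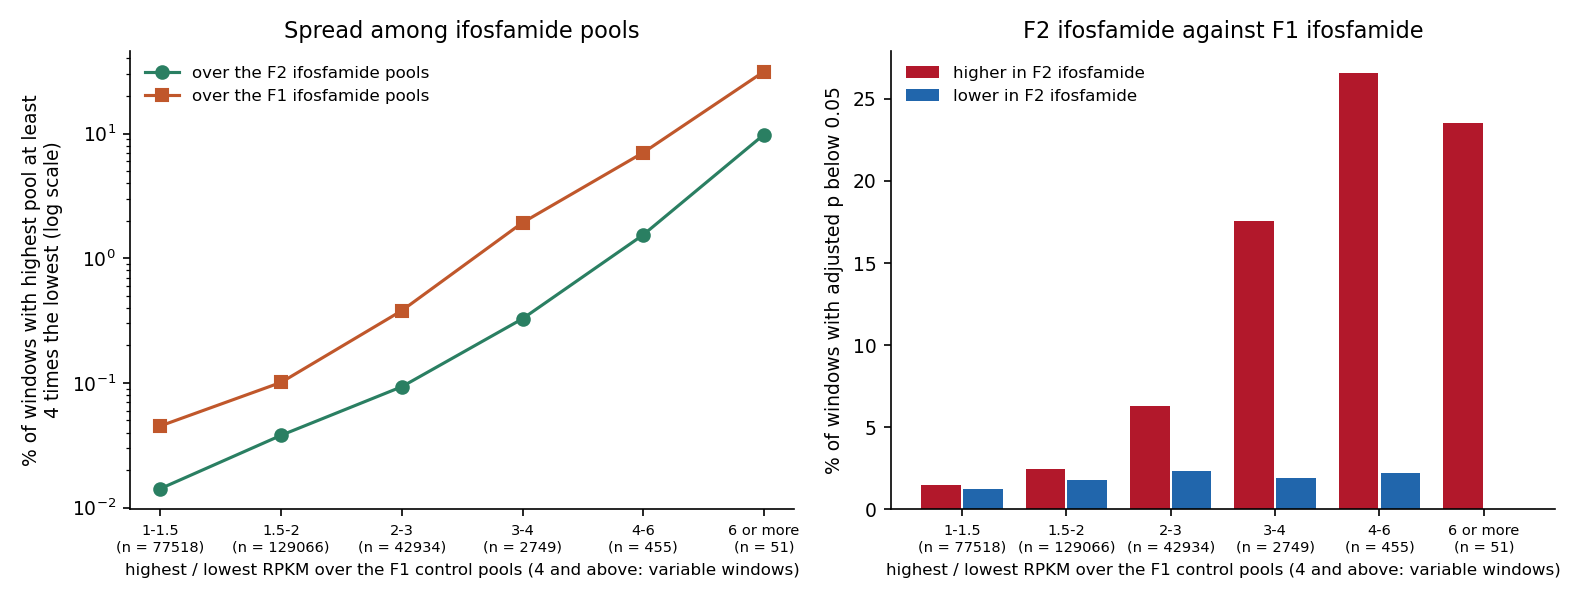
Left, share of windows whose highest pool was at least 4 times the lowest over the F2 ifosfamide and the F1 ifosfamide pools (log scale), by the ratio over the F1 control pools. Right, share of the same windows called higher or lower in F2 ifosfamide against F1 ifosfamide. F2 ifosfamide spread (0.0142% to 9.80%) and F1 ifosfamide spread (0.0452% to 31.4%) climb over the classes. The share called higher or lower climbs from 2.73% below a ratio of 1.5 to 28.8% at 4 to below 6. It is 23.5% (12 of 51 windows) at 6 or more.

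In 454 of the 506 windows neither ifosfamide group reached a ratio of 4, and in 8 windows both did. These 8 were 66.7% of the 12 in F2 ifosfamide and 16.7% of the 48 in F1 ifosfamide. In the other windows of the range 4 did so in both, which was 3.67% of the 109 in F2 ifosfamide and 1.05% of the 381 in F1 ifosfamide.

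Apart from the window with a pool at 0, the widest control ratio was at chr14:17504001-17505000. F2 ifosfamide pools 1 to 6 had 2.44, 4.11, 5.00, 1.76, 0.09 and 0.13 RPKM, F1 ifosfamide pools 11.6, 0.54, 0.46, 5.11, 6.16 and 0.15 RPKM, and F1 control pools 5.36, 0.07, 0.22, 0.15, 2.74 and 23.6 RPKM. Each group held pools below 1 RPKM and pools above 2 RPKM, and the control ratio was 337. At chr19:50419001-50420000 F2 ifosfamide pools had 10.6, 4.73, 3.76, 0.33, 4.71 and 0.63 RPKM, F1 ifosfamide pools 0.45, 0.28, 0.38, 0.49, 4.96 and 3.20 RPKM, and F1 control pools 5.40, 0.56, 0.22, 0.50, 0.28 and 0.28 RPKM. High pools numbered 4 of 6 in F2 ifosfamide, 2 of 6 in F1 ifosfamide and 1 of 6 in F1 control. This window was the next in order of the control ratio. Next after it was chr1:64592001-64593000, with 1.65 to 3.28 RPKM in F2 ifosfamide pools, 0.88 to 3.81 RPKM in F1 ifosfamide pools and 0.31 to 4.10 RPKM in F1 control pools. At chr1:203069001-203070000, the fifth in that order, F2 ifosfamide pools had 0.98 to 2.13 RPKM, F1 ifosfamide pools 0.44 to 1.3 RPKM and F1 control pools 0.19 to 1.88 RPKM. The fourth, at chr19:14401001-14402000, had 0.41 to 2.58 RPKM in F2 ifosfamide pools, 0.44 to 2.04 RPKM in F1 ifosfamide pools and 0.23 to 2.42 RPKM in F1 control pools.

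The other 5 windows at 4 times or more in all 3 groups had a common order. At chr16:39108001-39109000 the level was 0.54 to 3.19 RPKM in F2 ifosfamide pools (median 1.42), 0.17 to 1.05 RPKM in F1 ifosfamide pools (median 0.585) and 0.51 to 3.06 RPKM in F1 control pools (median 1.81). At chr14:98318001-98319000 it was 0.58 to 2.36 RPKM in F2 ifosfamide pools, 0.10 to 1.06 RPKM in F1 ifosfamide pools and 0.51 to 2.73 RPKM in F1 control pools. In both, as at chr2:135148001-135149000, chr2:216204001-216205000 and chr5:43379001-43380000, control pool 1 was the lowest of the controls, and F2 ifosfamide pools 1 and 2 were higher than F2 ifosfamide pools 5 and 6.

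F2 ifosfamide against F1 ifosfamide is the comparison that uses no control pool, so the values that chose the windows do not enter its test. The share called still differed with the control values, as given below. All 506 windows were tested. With edgeR's quasi-likelihood test and Benjamini-Hochberg adjustment over 1062540 tested windows, 143 variable windows (28.3%) had an adjusted p below 0.05. Of all tested windows 2.15% did so, and of the other windows of the range 4.69%. The calls ran one way, with 133 higher and 10 lower in F2 ifosfamide, where all tested windows gave 1.25% higher and 0.898% lower. The median log2 fold change was 0.37 over the variable windows and -0.0048 over all tested windows. The count was 60 with DESeq2 (56 higher and 4 lower), 66 without F1 ifosfamide pool 3, 72 without F2 ifosfamide pool 3, 82 without F2 ifosfamide pool 4, 89 without F1 ifosfamide pool 6 and 215 without F1 ifosfamide pool 1.

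The higher calls lay almost entirely in windows with control pool 1 lowest. Of those 327 windows 124 were called, each of them higher, and the F2 ifosfamide mean exceeded the F1 ifosfamide mean in 315. In the other 179 variable windows it did so in 76. This was not counted for the other windows of the range, whose median log2 fold change was -0.024. All these windows share the same 12 pools. In the 327 windows the F2 ifosfamide to F1 ifosfamide ratio of means had a median of 1.40. The F2 ifosfamide to F1 control ratio was 1.06 there and the F1 ifosfamide to F1 control ratio 0.761. Of the 76 windows with control pool 4 lowest, 1 was called higher and 8 lower. Of the 131 windows that also met the rule without control pool 1, 15 (11.5%) were called, 9 higher and 6 lower. Over the whole range the share called was 2.73% below a control ratio of 1.5, 8.61% at 2 to below 3, 19.5% at 3 to below 4, 28.8% at 4 to below 6 and 23.5% (12 of 51 windows) at 6 or more. The share of windows with control pool 1 lowest was 17.8%, 25.5%, 48.4%, 65.3% and 58.8% in the same classes. The part of this pool in the calls was not tested.

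The strongest call was at chr3:36093001-36094000, an isolated window. It had 6.22 to 15.8 RPKM in F2 ifosfamide pools (median 14.8) and 1.42 to 5.81 RPKM in F1 ifosfamide pools (median 2.62), without overlap. F1 control pools had 2.19 to 10.9 RPKM there. The log2 fold change of F2 ifosfamide over F1 ifosfamide was 1.93 (SE 0.16, edgeR adjusted p = 7.31e-16). At chr3:118675001-118676000 F2 ifosfamide pools had 1.43 to 3.57 RPKM and F1 ifosfamide pools 0.09 to 1.33 RPKM, again without overlap (log2 fold change 2.16, edgeR adjusted p = 4.61e-11). At chr14:52509001-52510000 F2 ifosfamide pools had 0.85 to 2.33 RPKM and F1 ifosfamide pools 0.40 to 0.69 RPKM, with a log2 fold change of 1.73 and an edgeR adjusted p of 1.34e-09. These calls held under every alternative that gave an adjusted p for them.

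Among the next strongest calls, F2 ifosfamide pools at chr9:55375001-55376000 had 2.49 to 3.89 RPKM and F1 ifosfamide pools 1.00 to 2.05 RPKM. At chr1:144006001-144007000 F2 ifosfamide pools had 1.39 to 2.74 RPKM and F1 ifosfamide pools 0.32 to 1.36 RPKM. At chr8:50892001-50893000 F2 ifosfamide pools had 4.63 to 5.99 RPKM and F1 ifosfamide pools 1.93 to 4.20 RPKM. At chr14:62297001-62298000 F2 ifosfamide pools had 1.35 to 2.34 RPKM and F1 ifosfamide pools 0.58 to 1.33 RPKM. In none of these 4 did the groups overlap, and the calls held under every alternative. At chr16:53012001-53013000 they did, with 0.93 to 2.05 RPKM in F2 ifosfamide pools and 0.32 to 0.98 RPKM in F1 ifosfamide pools. Of the 5 windows at 4 times or more in all 3 groups with control pool 1 lowest, 3 were called higher by edgeR, chr16:39108001-39109000 (adjusted p = 8.61e-06), chr14:98318001-98319000 (adjusted p = 1.67e-05) and chr2:216204001-216205000 (adjusted p = 0.0130). None of the 3 was called by DESeq2, with adjusted p-values of 0.107, 0.135 and 0.357, and the last also lost its call without F2 ifosfamide pool 2 or F1 ifosfamide pool 3. Over all alternatives the adjusted p of these 3 windows ran from 1.08e-07 to 0.357. The window at chr19:50419001-50420000 was called higher by edgeR (log2 fold change 1.48, SE 0.31, adjusted p = 0.00233), but not by DESeq2 (adjusted p = 0.515) or without F2 ifosfamide pool 1 (edgeR adjusted p = 0.0755), and over all alternatives its adjusted p ran from 8.74e-07 to 0.515.

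The 10 windows lower in F2 ifosfamide had smaller changes. The strongest was chr1:166065001-166066000, with 0.80 to 1.29 RPKM in F2 ifosfamide pools, 1.11 to 2.57 RPKM in F1 ifosfamide pools and a log2 fold change of -0.80 (SE 0.17, edgeR adjusted p = 0.00412). At chr3:176298001-176299000 F2 ifosfamide pools had 0.48 to 1.27 RPKM and F1 ifosfamide pools 1.01 to 1.84 RPKM (log2 fold change -0.86, edgeR adjusted p = 0.00530). At chr12:11495001-11496000 F2 ifosfamide pools had 0.66 to 1.03 RPKM and F1 ifosfamide pools 1.13 to 1.70 RPKM, without overlap (log2 fold change -0.71, edgeR adjusted p = 0.00958). Control pool 4 was the lowest control pool in all 3, and the calls held under every alternative that gave an adjusted p. The other 7 had log2 fold changes between -0.72 and -0.47, and each of them lost its call under at least 3 alternatives.

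In the comparisons with F1 control, the control values that chose the windows enter the test, so their counts are given without a reading. For F1 ifosfamide against F1 control, 24 of the 506 windows were called by edgeR, all 24 lower, where 0.0598% of all 1043656 tested windows were called (0.00546% higher and 0.0543% lower). For F2 ifosfamide against F1 control, 7 were called by edgeR, 6 higher and 1 lower, where 0.0311% of all 919249 tested windows were called (0.0186% higher and 0.0125% lower). Leaving out 1 pool moved the 24 to 66 (F1 ifosfamide pool 1), 8 (pool 3), 38 (pool 4) or 13 (pool 6), and to 95 (control pool 1), 14 (pool 2), 8 (pool 4) or 10 (pool 6). It moved the 7 to 4 (control pool 2) or 13 (control pool 4 or 6). For F1 ifosfamide against F1 control some of these fits also gave higher calls. They were 9 higher and 57 lower without F1 ifosfamide pool 1, and 8 higher and 11 lower without control pool 3. Lower calls outnumbered higher ones in every fit of that comparison that had calls. With 1 pool left out, 0.0141% to 0.188% of all tested windows were called for F1 ifosfamide against F1 control. For F2 ifosfamide against F1 control it was 0.00755% to 0.158%. Both comparisons share the 6 control pools. DESeq2 called none in either, where it gave an adjusted p to 51 variable windows for F1 ifosfamide and 183 for F2 ifosfamide. Over all 506 windows, with or without an adjusted p, DESeq2 had an unadjusted p below 0.05 in 92 for F1 ifosfamide and 20 for F2 ifosfamide, and edgeR in 210 and 89. The window at chr9:119866001-119867000 was called lower in both, with 0.42 to 0.91 RPKM in F2 ifosfamide pools, 0.31 to 0.98 RPKM in F1 ifosfamide pools and 0.40 to 2.08 RPKM in F1 control pools. Its log2 fold change was -1.14 for F2 ifosfamide and -1.16 for F1 ifosfamide over F1 control, and neither call held without control pool 2 (edgeR adjusted p = 0.0737 and 0.0879, the highest over all alternatives, where the lowest were 1.23e-05 and 0.000687).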

How the data were processed

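MeDIP-seq of rat sperm gave 34 libraries in the labels, of which 18 were used. The build Rnor_6.0 and the tools Trimmomatic, FastQC, SAMtools, Bowtie2 and edgeR are named per the submitters' processing notes, without version, role or setting. Per the file headers, the authors deposited read counts for each window of 1000 bases and library, and RPKM values beside them. The deposited RPKM values, with 2 decimals, equal the count divided by 1 constant per library to within 0.014 RPKM, and that constant gives the reads per library. The authors' deposited log2 fold changes, p-values and group means of counts were not used. The control columns were identical in both deposited tables, which were joined. Windows carry their deposited coordinates and no gene names, because no annotation of that build was used.

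The rule, ratios, coefficients of variation and correlations used the RPKM values, in hundredths for the rule. Each comparison was fitted on the counts of its 12 pools with edgeR 4.0.16 (TMM normalization, filterByExpr with a minimum count of 10, quasi-likelihood test, two-sided, no covariates), with Benjamini-Hochberg adjustment across every tested window. Fits were checked on simulated counts. The rule for named windows took the 10 largest runs, the 5 highest control means, the 5 highest finite ratios, the 10 smallest p-values in each direction for F2 ifosfamide against F1 ifosfamide, windows called alike in both comparisons with F1 control, the windows nearest the threshold and the 5 highest coefficients of variation in both ifosfamide groups. The window with a pool at 0, the other 3 runs, the 17 windows that share an order of control pools and the 8 windows at 4 times or more in all groups were chosen after their values were seen. The members, the lists and the classes by lowest control pool were chosen with earlier results of these data known. The labels do not say that the same pool number in different groups pairs pools. Correlations of same-numbered pools over the range ran from -0.276 to 0.124. Between F2 ifosfamide and F1 control, 4 pools correlated best with the pool of their own number. In the other pairs of groups 0 did. Whether the numbers pair pools was not tested. No 2 pools of a group were copies, since chi-square per degree of freedom between pools was at least 1.068 over the windows of the range. Libraries of 23336048 to 39440265 window counts limit a window at 1 RPKM to about 20.2 to 31.6 counts. Alternatives were other tests, scalings, filters, thresholds and distances, and leaving out each pool.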

Additional observations from a re-analysis of the deposited data

Results flagged for a closer look

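Of 144 sets of 6 pools examined, for the windows and runs given with their values, 11 held a pool whose gap to its nearest neighbour, divided by the range of the group, passed Dixon's 95% critical value. Chance passes about 1 in 20 such sets, and the control values also chose the windows. Among F2 ifosfamide pools there was none.

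In F1 ifosfamide, pool 4 stood above the other pools in the runs at chr17:26697001-26699000 (gap 0.702 of the range) and chr2:266384001-266386000 (0.716), and in the windows at chr2:135148001-135149000 (0.815) and chr5:43379001-43380000 (0.676). F1 ifosfamide pool 5 stood above the others in the run at chr1:11910001-11912000 (0.629), and F1 ifosfamide pool 1 in the run at chr12:15631001-15633000 (0.673). The F1 ifosfamide values had no part in choosing the 506 windows or the runs, but the windows at chr2:135148001-135149000 and chr5:43379001-43380000 were named because all 3 groups reached 4 times.

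In F1 control, pool 1 stood below the others in the runs at chr2:266384001-266386000 (0.670) and chr2:39669001-39671000 (0.843), and pool 6 below the others at chr14:16610001-16611000 (0.735). Control pool 6 stood above the others at chr14:17504001-17505000 (0.775) and control pool 1 at chr19:50419001-50420000 (0.934).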

How the results depend on the processing

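For F2 ifosfamide against F1 ifosfamide, 143 calls became 60 with DESeq2 and 66 to 215 with a pool left out, and no other setting of the test moved the count by over 1.5 times. The share called of all tested windows was 2.15% in the main fit, 1.96% with DESeq2 and 0.81% to 3.4% with a pool left out. The replicate block gave 121, and the labels do not say that the numbers pair pools. For windows chosen without a control pool, those also among the 506 were counted. Like the spreads below, this alternative was added after seeing the data. Without pool 1, 15 of 131 (11.5%) were called, and without pool 6, 83 of 265 (31.3%). Without any 1 of the other control pools the share was 29.1% to 30.9%, against 28.3% of all 506. For F1 ifosfamide against F1 control, 24 calls became 0 with DESeq2, 2 with a minimum count of 30 and 8 to 95 with a pool left out, and the replicate block gave 24. For F2 ifosfamide against F1 control, 7 calls became 0 with DESeq2, 1 with a minimum count of 30, 4 in a fit of all 18 pools and 4 to 13 with a pool left out, and the replicate block gave 10. The 506 windows became 3255 at 3 times, 51 at 6 times, 199 with 0.1 RPKM added and 141 to 487 without 1 control pool. TMM-scaled CPM gave 499, of which 448 were shared. The share with another within 10 kb (5.93%) became 9.29% within 50 kb, 2.77% without the adjacent window, 11% and 11.8% for windows chosen at 3 and 6 times, and 4.72% to 12.1% without a control pool. Median r at 2 to 10 kb became 0.846 at 1 kb and 0.390 to 0.789 with a pool left out in F2 ifosfamide, 0.664 to 0.929 with a pool left out in F1 ifosfamide, and 0.857 as Spearman's rho and 0.972 to 0.988 with a pool left out in F1 control. The F2 ifosfamide spread (2.37%) became 4.74% at 3 times, 0.988% at 6 times, 1.58% to 2.37% with one of its pools left out and 1.42% to 4.23% for windows chosen without a control pool. The F1 ifosfamide spread (9.49%) became 23.5% at 3 times, 3.56% at 6 times, 5.34% with 0.1 RPKM added, 6.13% to 9.09% with one of its pools left out and 9.24% to 13.4% for windows chosen without a control pool. No direction of a named window reversed. Causes were not tested. With a median of 9 counts in the lowest control pool, counting error adds to every ratio.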
